A study of Mus musculus with 6 samples.

Results

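The cytosolic ribosomal protein genes of whole mouse testes were described in 3 libraries from mice with a germ cell knockout of Dcaf2 (cKO) and 3 control libraries, all labelled day 9. The cKO mice carried floxed Dcaf2 alleles and Stra8-Cre, a recombinase transgene under the promoter of Stra8, which is active in spermatogonia, so that somatic cells of the testis keep the gene. The labels give the control genotype only as control, do not say which alleles the controls carry or from which event days were counted, and number the samples without saying whether each is a separate animal, so that p-values reflect only how these libraries spread, which may be partly technical. Members were the rows of the count table whose deposited symbol is Rpl or Rps followed by a number and at most a short suffix, or is Rplp0, Rplp1 or Rplp2, read without regard to upper and lower case. This gave 96 rows of 22274, of which 39 have the symbol in mouse case and 57 in another case, since the table writes many mouse symbols in capitals. The 96 rows hold 82 protein-coding ribosomal protein genes, 51 of the large and 31 of the small subunit, and 14 rows of pseudogenes, copies or read-through genes that carry a parent gene's symbol. All 82 genes and 3 of the 14 copies passed the filter on low counts, and the other 11 copies were not tested. Rpl41, whose deposited symbol is a dash, was not a member.

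The cytosolic ribosome makes nearly all cellular proteins, and each of its protein subunits is needed in about the same amount as the others. Vertebrate messenger RNAs of these genes usually begin with a cytosine followed by a run of pyrimidines, the terminal oligopyrimidine (TOP) motif, through which the TOR kinase pathway and LARP1 control their translation. Male germ cells also express a few paralogs of ribosomal protein genes. Rpl10l is a retrogene copy of the X-linked Rpl10 and Rpl39l a paralog of the X-linked Rpl39, and in mice both are needed for male fertility, while Rpl3l, a paralog of Rpl3, is known from skeletal muscle and heart. The X chromosome is silenced in the spermatocytes that pass through meiosis.

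The start of transcription is shown for 4 members with a pyrimidine start and 3 without, because the TOP motif is known from these genes and was looked for at their starts. Each window runs from 40 bases before the annotated start to 20 bases from the start on, and was read from RefSeq promoters of build GRCm38.p6. Capitals mark the run of C and T that begins with C at the annotated start, or, where there is no such run, the base at the start.
Rps6, chr4:86857348-86857407, minus strand: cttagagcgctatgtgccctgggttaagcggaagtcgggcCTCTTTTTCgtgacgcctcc
Rpl15, chr14:18270967-18271026, minus strand: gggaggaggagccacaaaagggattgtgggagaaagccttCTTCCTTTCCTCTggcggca
Rps15a, chr7:118116128-118116187, minus strand: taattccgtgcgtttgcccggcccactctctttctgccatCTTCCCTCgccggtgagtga
Rplp2, chr7:141447611-141447670, plus strand: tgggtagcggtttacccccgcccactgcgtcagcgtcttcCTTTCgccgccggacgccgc
Rpl10l, chr12:66284382-66284441, minus strand: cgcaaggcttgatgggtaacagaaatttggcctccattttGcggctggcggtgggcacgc
Rpl10, chrX:74270776-74270835, plus strand: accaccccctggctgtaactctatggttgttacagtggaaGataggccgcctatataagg
Rps4x, chrX:102189372-102189431, minus strand: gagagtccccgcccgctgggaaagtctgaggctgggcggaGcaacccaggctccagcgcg
Of the 82 genes, 62 had a promoter in the table, with 74 annotated starts. A C at the start base followed by at least 4 bases that are C or T, read on the transcribed strand, stood at 13 of these starts (17.6%), against 823 of 32851 starts of all genes (2.51%). A run of at least 8 pyrimidines, counted from a C, within 25 bases on either side of the start stood at 45.9% of the member starts. Of all starts, 15.5% had it. Annotated starts can lie a few bases from the base where transcription begins, so the first share depends on the annotation.

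Ribosomal protein transcripts made up a smaller share of all counts in the cKO testes on average, but the cKO range lay against a wide spread of controls. Members held 2.37, 2.49 and 2.51% of the counts in cKO libraries 1, 2 and 3, against 3.74, 2.52 and 3.12% in control libraries 1, 2 and 3. The means were 2.46 ± 0.0762% in cKO and 3.13 ± 0.610% in control libraries (SD, n = 3 each). All 3 cKO libraries were below all 3 controls, but control 2 exceeded the highest cKO library by far less than the controls differed among themselves. On the deposited FPKM scale, which is per transcript length, members held 7.46 ± 0.257% in cKO and 8.88 ± 1.22% in control libraries (SD, n = 3 each).

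**Figure D1:**
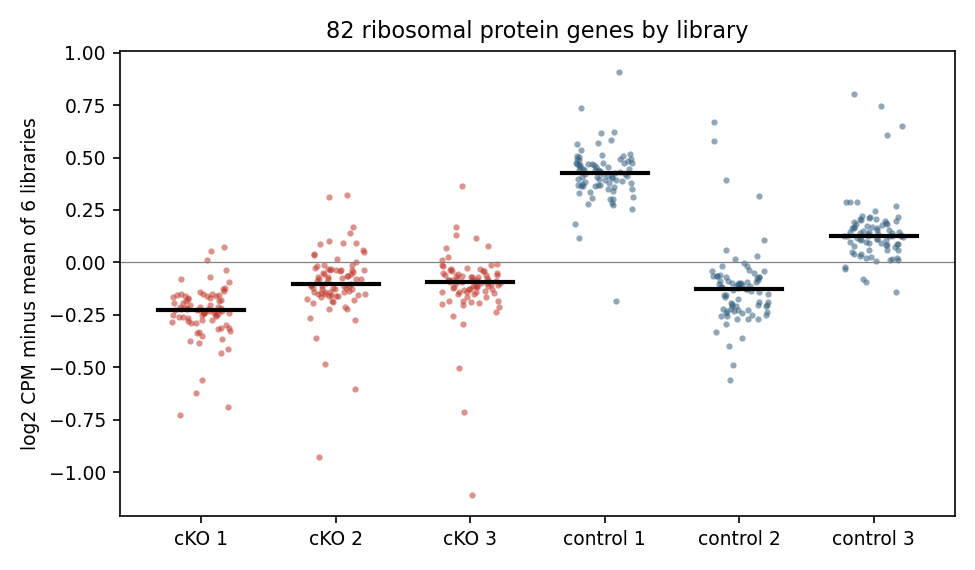
Log2 CPM of the 82 ribosomal protein genes in each library, minus the gene's mean over the 6 libraries, with 1 point a gene and a bar at the library's median. The medians were -0.23, -0.10 and -0.10 in cKO libraries 1, 2 and 3 and 0.42, -0.12 and 0.13 in control libraries 1, 2 and 3, so control 1 stands above all others and control 2 lies within the cKO range.

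The members moved together from library to library. Control 1 had the highest level of 79 of the 82 genes, cKO 1 the lowest of 51 and control 2 the lowest of 25. The median SD of log2 CPM among replicates was 0.0808 in cKO and 0.284 in control libraries over the members, and it was larger among controls for 79 of 82 genes. Over all tested genes these medians were 0.101 in cKO and 0.191 in control libraries. Fewer cells of a type and less RNA per cell cannot be told apart in such bulk samples.

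In the test of cKO against control, 11 of 85 tested members fell and 0 rose (edgeR quasi-likelihood test, Benjamini-Hochberg adjusted p under 0.05). The 11 are 12.9% of the members, against a background of 13.9% of all 14424 tested genes lower and 11.1% higher, so the share of members called was near that of all genes. At an unadjusted p under 0.05 in the same test, 38 members were lower and 0 higher. The share of all tested genes at that unadjusted threshold was not counted, so these numbers have no background. The direction was more uniform than the calls: 78 of the 82 genes had a negative log2 fold change, with a median of -0.30 over the tested members and 0.03 over all tested genes. All 3 cKO libraries were below all 3 controls for 30 members (35.3%), against a background of 22.1% of tested genes, and above all controls for 0 members, against 22.5%. The large subunit had 6 lower of 51 and a median of -0.29, and the small subunit 5 lower of 31 and a median of -0.34.

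These counts depended on single libraries. Without cKO library 1, 2 or 3, the number of lower members was 2, 3 and 5, beside backgrounds of 6.59, 6.19 and 8.56%. Without control library 1 it was 16 (background 19.7%), without control 2 it was 63 (background 15.7%) and without control 3 it was 4 (background 7.63%). At an adjusted p under 0.01 it was 2 (background 6.40%), Rpl10l and Rpl39l. The median log2 fold change was -0.18 without control 1 and -0.43 without control 2. Without control 1, 3 members were higher (background 16.4%), namely Rps4x and the 2 copies of Rps18 described further on, named after their values were seen. In each of the other 5 fits 0 were higher, beside backgrounds of 3.24, 3.10 and 4.57% without cKO library 1, 2 or 3 and 13.7 and 4.62% without control library 2 or 3. With DESeq2, 33 members were lower (background 15.8%) and with total-count scaling 22 (background 16.8%).

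**Figure D2:**
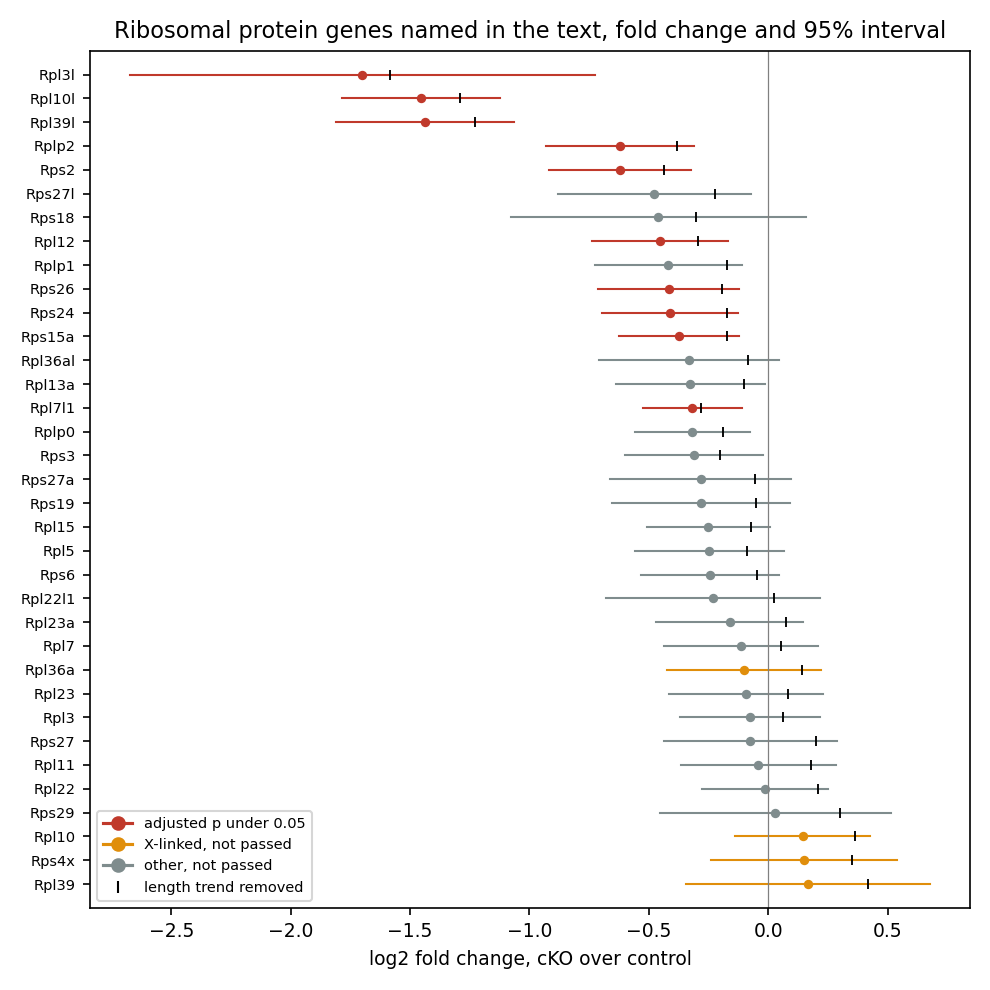
Log2 fold change of cKO over control for 35 named member genes (points) with the 95% interval from the edgeR fit (lines), ordered from the most negative at the top, and the estimate with the length trend removed (black ticks). Rpl3l, Rpl10l and Rpl39l stand apart at the left, most other genes drawn lie between -0.62 and 0, and 3 of the 4 X-linked genes stand last.

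The common shift ran alongside a trend on transcript length. The members are short, with a median transcript of 714 bases (345 to 3706) as the deposited counts and FPKM values give it, against 2811 bases over all tested genes, and 80 of the 82 fell in the shortest of 5 equal bins of tested genes. In that bin the median log2 fold change was -0.15, also over the 2802 genes of the bin that are not members (-0.15), and it ran through -0.04, 0.02 and 0.10 to 0.24 in the longest bin. Control 1 carried the steepest trend: its median deviation from the mean of the 6 libraries was 0.31 in the shortest bin and -0.34 in the longest, while the 3 cKO libraries ran from between -0.11 and -0.04 to between 0.10 and 0.13. Control 2 ran the same way as the cKO libraries, from -0.09 to 0.10.

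**Figure D3:**
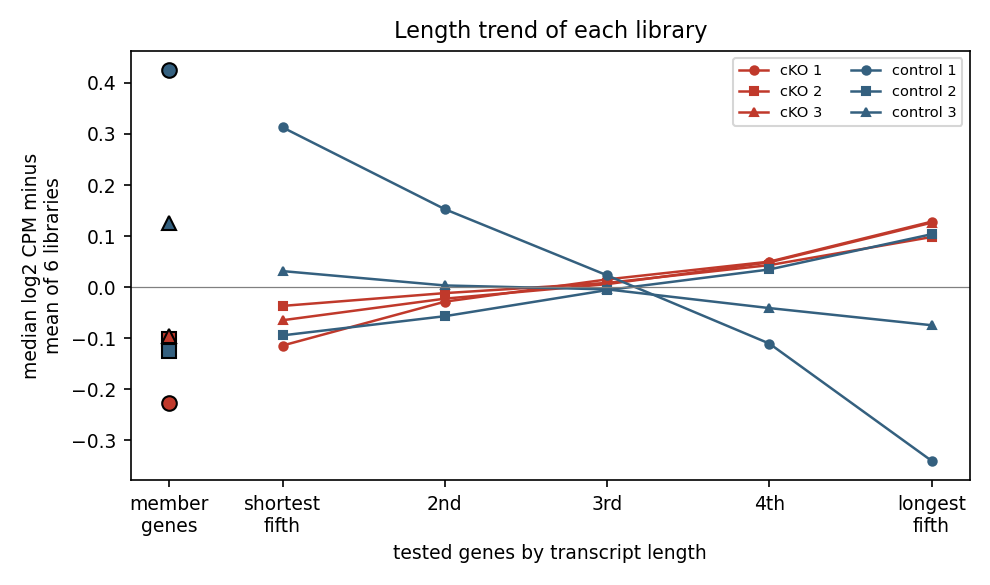
Median log2 CPM minus the mean of the 6 libraries, for the 82 member genes (left) and for all tested genes in 5 bins of transcript length, with 1 line a library. Control 1 falls from 0.31 in the shortest bin to -0.34 in the longest, and the libraries stand in the same order in the shortest bin as over the members, except that cKO 2 and cKO 3 change places.

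When a smooth trend on length was taken out of each library (lowess, span 0.3), the median of the members was -0.09, against 0.01 over all tested genes. Then 11 members were lower (background 19.5%) and 6 higher (background 14.3%), and 9 of the 11 lower members were those called without the correction. The 2 gained were Rps27l at -0.22 and Rps3 at -0.20 (edgeR adjusted p = 0.0481 and 0.0478), which passed in 0 and 1 of the 6 fits that also leave out a library. The 6 higher members were Rpl39 at 0.42, Rpl10 at 0.36, Rps4x at 0.35, Rps29 at 0.30, Rps27 at 0.20 and Rpl11 at 0.18, with edgeR adjusted p between 0.00973 and 0.045. Rps29 was named after its value was seen. With 1 library also left out, 7, 7 and 7 members were lower without cKO library 1, 2 or 3 (backgrounds 13.9, 12.4 and 15.5%) and 19, 13 and 7 without control library 1, 2 or 3 (backgrounds 22.1, 16.4 and 14.3%). Higher members then numbered 3, 2 and 2 without cKO library 1, 2 or 3 (backgrounds 7.75, 6.39 and 9.47%) and 7, 2 and 3 without control library 1, 2 or 3 (backgrounds 17.5, 11.7 and 8.78%). Of the 6, Rps4x passed in all 6 of these fits, Rpl10 in 5, Rpl39 and Rps29 in 2, Rps27 in 1 and Rpl11 in 0.

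The largest differences among the members were in the 3 paralogs Rpl10l, Rpl39l and Rpl3l, all lower in cKO testes. Rpl10l (ENSMUSG00000060499, chromosome 12) had 9.10, 7.63 and 10.4 CPM in cKO libraries, against 25.2, 22.6 and 26.5 CPM in control libraries. The groups lay far apart, and the level was 2.74-fold lower in cKO testes (edgeR log2 fold change -1.45, SE 0.146, adjusted p = 0.000568). Rpl39l (ENSMUSG00000039209, chromosome 16) had 6.95, 7.63 and 7.04 CPM in cKO libraries, against 22.7, 15.7 and 20.2 CPM in control libraries. Here too every cKO value was below every control, and the edgeR log2 fold change was -1.44 (SE 0.164, adjusted p = 0.000973). Both calls held with any 1 library left out, and both genes fell also with the length trend removed, by 1.29 and 1.23 on the log2 scale. Rpl3l (ENSMUSG00000002500, chromosome 17), at the floor of the members' range, had 8, 15 and 3 counts in cKO libraries, against 30, 34 and 31 counts in control libraries. Its edgeR call, at -1.70 on the log2 scale (SE 0.431, adjusted p = 0.0215), was lost without cKO library 1 or 3 or control library 3, where the adjusted p was 0.0858, 0.0631 and 0.0737.

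Transcripts of a germ cell list, chosen with earlier results of these data known, fell in the same comparison. Of 10 genes of undifferentiated spermatogonia, 3 were lower and 1 higher (backgrounds 13.9 and 11.1%), with a median of -0.35 on the log2 scale. These 10 genes summed to 291, 243 and 282 CPM in cKO libraries, against 306, 441 and 450 CPM in control libraries. All 19 genes of the germ cell list, such as Ddx4 and Dazl, were lower (background 13.9%), at a median of -1.53 on the log2 scale. Their summed level was 661 to 829 CPM in cKO libraries, against 1793 to 2389 CPM in control libraries. None of the 19 was at 0 in any library. The part of the fall of these 19 genes in the values of the 3 paralogs was not tested. The other 79 genes had a median of -0.30, and 8 of them were lower.

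Whether reads were shared between Rpl39l and Rpl39 was not tested. Their coding sequences are shown because Rpl39l was among the members that fell most and is compared with Rpl39 below. Both were read from GENCODE vM21 transcripts on GRCm38, Rpl39l on the plus strand of chromosome 16 and Rpl39 on the minus strand of chromosome X, and capitals mark the bases that differ.
Rpl39l: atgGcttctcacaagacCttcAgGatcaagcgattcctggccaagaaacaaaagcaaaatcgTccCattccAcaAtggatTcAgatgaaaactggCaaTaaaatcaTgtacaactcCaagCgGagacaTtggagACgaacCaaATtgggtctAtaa
Rpl39: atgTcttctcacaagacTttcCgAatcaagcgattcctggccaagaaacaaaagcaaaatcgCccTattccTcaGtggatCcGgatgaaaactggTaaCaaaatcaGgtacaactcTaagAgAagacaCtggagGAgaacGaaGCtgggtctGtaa
The sequences differ at 23 of 156 bases, an identity of 85.3%, with no gap. Rpl10l and Rpl10 are 84.8% identical over 645 coding bases, and Rpl3l and Rpl3 73.3%.

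Relative to their partners, per transcript length, the same 3 paralogs were lower in each cKO library. Rpl10l stood at 2.15, 1.82 and 2.40% of the FPKM of Rpl10 in cKO libraries, against 5.84, 7.22 and 6.64% in control libraries. These percentages use the Rpl10 row without its copy Rpl10-ps3, whose coding bases are the same. That copy held 45.7 to 49.8% of their summed counts in cKO libraries and 48.4 to 57.3% in control libraries. The percentages would be lower against the sum. Rpl39l stood at 11.3, 8.86 and 9.10% of Rpl39 in cKO libraries, against 25.3, 34.5 and 32.8% in control libraries. Rpl3l was at 0.0683% of Rpl3 in cKO libraries on average, against 0.212% in control libraries. Rps27l, a paralog of Rps27 known as a p53 target, stood at 18.9 ± 0.800% of Rps27 in cKO and 24.9 ± 1.33% in control libraries (SD, n = 3 each). Rpl36al, a retrogene of the X-linked Rpl36a, stood at 50.3 ± 1.48% of its partner in cKO and 58.6 ± 4.67% in control libraries (SD, n = 3 each). In these 5 pairs the groups did not overlap. In CPM, 22.1% of all tested genes had every cKO library below every control and 22.5% had every one above. Such a share was not counted for ratios of gene pairs. Rpl22l1 relative to Rpl22 (21.7 ± 1.55% in cKO and 21.7 ± 3.20% in controls) and Rpl7l1 relative to Rpl7 (8.18 ± 0.568% in cKO and 8.69 ± 1.59% in controls) overlapped. With 3 libraries against 3, a 2-sided exact permutation test cannot go below p = 0.1, which the 5 pairs reached, and over the 7 pairs the adjusted p of that exact test was 0.14.

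**Figure D4:**
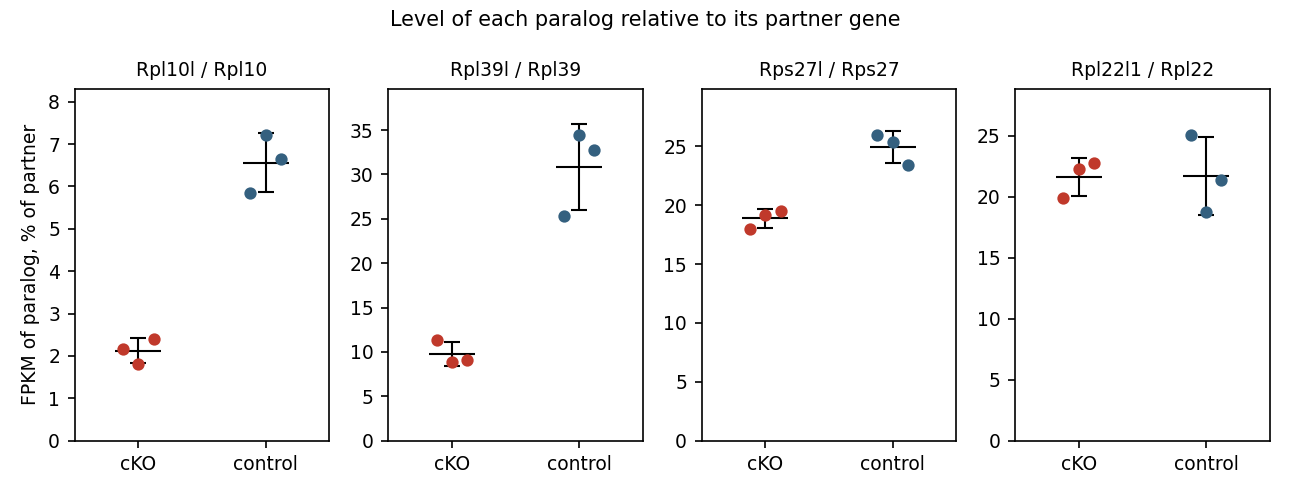
FPKM of 4 paralogs as a percent of the FPKM of their partner, with 1 point a library and the mean and SD of 3 libraries per group in black. The cKO points of Rpl10l, Rpl39l and Rps27l lie below all control points, and those of Rpl22l1 lie within the control range.

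Among the other members that fell, Rplp2 and Rps2 were lower by about the same amount. Rplp2 (ENSMUSG00000025508, chromosome 7), of the acidic stalk that recruits elongation factors, had 141, 151 and 153 CPM in cKO libraries, against 274, 186 and 223 CPM in control libraries. It fell by 0.62 on the log2 scale (edgeR, SE 0.137, adjusted p = 0.0129). Rps2, of the small subunit and the more abundant of the pair, was at 608 ± 34.0 CPM in cKO and 934 ± 164 CPM in control libraries (SD, n = 3 each), and its fitted log2 difference was -0.62. Both genes fell also with the length trend removed, by 0.38 and 0.44 on the log2 scale, and there with any 1 library left out. Without that correction, leaving out 1 library gave edgeR adjusted p up to 0.0675 for Rplp2 and 0.0639 for Rps2 (both lost without cKO library 1 or 2).

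A further 5 lower members were Rpl12 at -0.45, Rps26 at -0.42, Rps24 at -0.41, Rps15a at -0.37 and Rpl7l1 at -0.32, with edgeR adjusted p between 0.0304 and 0.0452. Each of the 5 lost its call without any 1 cKO library or control library 3 and kept it without control library 1 or 2. Rpl12, which together with the stalk proteins forms the base of the stalk, stayed lower with the length trend removed (-0.30, edgeR adjusted p = 0.00989), as did Rpl7l1 (-0.28, adjusted p = 0.00838) and Rps26 (-0.19, adjusted p = 0.0469). With 1 library also left out, Rpl7l1 passed in 6 of 6 such fits, Rpl12 in 5 and Rps26 in 1. Rps24 and Rps15a did not pass there (edgeR adjusted p = 0.0843 and 0.0729). Rps2, Rpl12, Rps26 and Rps15a were named after their values were seen. The other stalk genes, Rplp0 and Rplp1, had log2 fold changes of -0.32 and -0.42 (edgeR adjusted p = 0.0585 and 0.0513), and both passed without control library 1 or control library 2.

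Per transcript length, the most abundant members were Rps24, Rpl13a and Rpl23a. Rps24 averaged 974 ± 63.6 FPKM in cKO and 1362 ± 231 FPKM in control libraries (SD, n = 3 each). Rpl13a averaged 921 ± 91.9 FPKM in cKO and 1141 ± 231 FPKM in control libraries, and Rpl23a 917 ± 48.7 FPKM in cKO and 1076 ± 214 FPKM in control libraries (SD, n = 3 each). In log2 fold change Rpl13a was at -0.33 and Rpl23a at -0.16 (edgeR adjusted p = 0.115 and 0.412). At the low end were Rpl3l, the copy Gm11361 and Rpl10l, at 0.410 ± 0.280, 13.5 ± 11.8 and 8.65 ± 1.37 FPKM in cKO libraries, against 1.34 ± 0.134, 12.1 ± 20.3 and 24.8 ± 2.39 FPKM in control libraries (SD, n = 3 each).

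Of the 4 X-linked members, Rpl39, Rps4x and Rpl10 had the highest log2 fold changes of the 82 genes, and Rpl36a was slightly below 0. This group was formed after its values were seen, so it is a description. Rps4x (ENSMUSG00000031320), of the small subunit, had 505, 519 and 534 CPM in cKO libraries, against 601, 348 and 457 CPM in control libraries. The groups overlapped, with control 1 highest and control 2 lowest, and the log2 fold change was 0.15 (95% interval -0.24 to 0.54, edgeR adjusted p = 0.56). Leaving out control 2 gave -0.04, and leaving out control 1 gave 0.34 (edgeR adjusted p = 0.0374). Rpl10 (ENSMUSG00000008682), which joins the large subunit late in its assembly, had 281, 276 and 289 CPM in cKO libraries, against 289, 208 and 268 CPM in control libraries, with a log2 fold change of 0.15 and an adjusted p of 0.424 in edgeR. Rpl39 (ENSMUSG00000079641), which lines the exit tunnel, was at 0.17 and Rpl36a at -0.10 (edgeR adjusted p = 0.625 and 0.636).

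Taken as shares of the members' own summed CPM, which removes any shift common to all of them, genes differed in direction. Since shares of a fixed total must move both ways, 21 of the 82 genes had all cKO shares below all control shares, 18 had them above, and 43 overlapped. Taken relative to the same member sum, 7.77% of all tested genes had every cKO library below every control and 38.3% had every one above. That sum was lower in cKO libraries on average, so dividing by it tends to raise other genes there. These shares are thus not a like background for the members. In CPM itself the shares of all tested genes were 22.1 and 22.5%. All 4 X-linked genes were among the 18 members with higher cKO shares, and the other 14 were autosomal. Rps4x held 2.14, 2.06 and 2.10% of member CPM in cKO libraries, against 1.69, 1.39 and 1.53% in control libraries. Rpl10 held 1.19, 1.10 and 1.14% in cKO libraries, against 0.811, 0.834 and 0.894% in control libraries. Rpl39 held 0.198, 0.264 and 0.235% in cKO libraries, against 0.197, 0.144 and 0.161% in control libraries. By the ratio of mean shares, Rpl39, Rps4x and Rpl10 held ranks 1, 2 and 3 of the 82 genes and Rpl36a rank 11. Over all tested genes, X-linked ones had a median of 0.12 (599 genes) and autosomal ones of 0.03 (13780 genes) in log2 fold change.

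Several members are known for roles outside the ribosome. Rpl5, Rpl11 and Rpl23 bind MDM2 and can thereby stabilise p53, and their log2 fold changes were -0.25, -0.04 and -0.09 (edgeR adjusted p = 0.215, 0.856 and 0.662). Rps27l was at 26.8, 34.4 and 32.5 CPM in cKO libraries, against 56.0, 34.7 and 39.6 CPM in control libraries. Control 2 lay just above cKO 2, and the edgeR log2 fold change was -0.48 (SE 0.179, adjusted p = 0.0803). Rpl22, whose product binds RNA and restrains its paralog Rpl22l1 in mice, was at -0.01 and Rpl22l1 at -0.23 (edgeR adjusted p = 0.947 and 0.424). Rps3, which has a part in DNA repair, was at -0.31 (edgeR adjusted p = 0.105, and 0.00853 without control library 2). Rps6, the substrate of the S6 kinases, was at -0.24, Rps19, a gene of Diamond-Blackfan anaemia in humans, at -0.28, and Rps27a, which encodes ubiquitin fused to a ribosomal protein, at -0.28 (edgeR adjusted p = 0.186, 0.234 and 0.241). Without control library 2 these 3 passed, with adjusted p of 0.0175, 0.0175 and 0.0242. The partners Rpl3, Rpl7 and Rps27 were at -0.08, -0.11 and -0.07, and with the length trend removed these turned to 0.06, 0.05 and 0.20, as did Rpl11, Rpl22, Rpl23, Rpl36a, Rpl22l1 and Rpl23a, to between 0.03 and 0.21.

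The counts of Rps18 and its near-identical copies were divided differently from library to library. Rps18 had 2894, 3524 and 5620 counts in cKO libraries, against 4825, 6467 and 7353 counts in control libraries. Its copy Gm10260 on chromosome 13 had 2035, 2592 and 4 counts in cKO libraries, against 3674, 7 and 5 counts in control libraries, and Gm11361, on the same chromosome, 168, 241 and 1 counts in cKO libraries, against 396, 2 and 5 counts in control libraries. So Rps18 held 54.2 to 56.8% of the family's counts in cKO 1, cKO 2 and control 1, and 99.9% in the other 3 libraries. The coding bases of the copies are 99.1 and 99.4% identical to those of Rps18. Summed over the 3 rows, the family had 331, 373 and 373 CPM in cKO libraries, against 469, 361 and 442 CPM in control libraries, which gave a log2 difference of -0.24 (edgeR adjusted p = 0.165), in place of -0.46 for Rps18 alone (adjusted p = 0.241). The same split bears on Rpl10, whose copy Rpl10-ps3 on chromosome 9 has the same 645 coding bases: Rpl10 held 50.2 to 54.3% of the summed counts in cKO libraries and 42.7 to 51.6% in control libraries. The sum was at 547, 549 and 532 CPM in cKO libraries, against 678, 414 and 519 CPM in control libraries, with a log2 fold change of 0.02 (edgeR adjusted p = 0.949). Single values of Rpl10 and Rps18 are therefore uncertain. For Rpl10 this includes its call with the length trend removed, its rank among member shares and the ratio of Rpl10l to it. Of the 11 copies that were not tested, 8 had counts (Rpl9-ps6, Rpl36a-ps1, Rps27rt, Gm2000, Gm3550, Gm6133, Gm6525 and the unnamed gene ENSMUSG00000118552), each under 1 CPM in every library, and 3 had none.

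**Figure D5:**
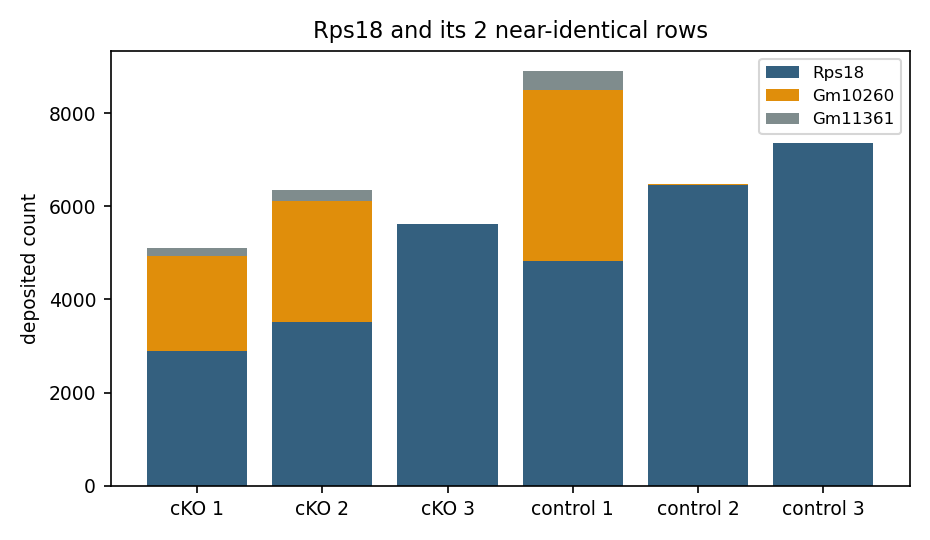
Deposited counts of Rps18 and of its near-identical copies Gm10260 and Gm11361 in each library, stacked. Rps18 holds 54.2 to 56.8% of the stack in cKO 1, cKO 2 and control 1 and 99.9% of it in cKO 3, control 2 and control 3.

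Members with and without a pyrimidine start had medians close to each other, and their difference was not tested. The 13 genes with it had a median of -0.32 on the log2 scale, with 2 lower (Rplp2 and Rps15a), and the other 49 genes with a promoter a median of -0.31, with 8 lower, both shares near the background of 13.9% of all tested genes. Rps6 and Rpl15, whose starts are shown above, were at -0.24 and -0.25, and Rps27, the least negative of the 13, at -0.07. TOP messenger RNAs outside the ribosome, such as those of elongation factors, had a median of -0.15. Of these 16, 2 were lower and 0 higher, beside backgrounds of 13.9 and 11.1%. The 2 were Npm1, of the nucleolus (-0.36, edgeR adjusted p = 0.0195), and Eef1g, an elongation factor subunit (-0.35, adjusted p = 0.0421). Without any 1 cKO library or control 3 there were 0 lower, and without control 1 or 2 there were 5. Backgrounds of lower genes in these fits were 6.59, 6.19 and 8.56% without cKO library 1, 2 or 3. They were 19.7, 15.7 and 7.63% without control library 1, 2 or 3. Both sets apply to the lists below.

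Many genes that build the ribosome fell. Of 64 genes of ribosome assembly and rRNA processing, 32 were lower and 1 higher, with a median of -0.36, beside the background of 13.9% lower. Ddx10, an RNA helicase gene, was at 88.6 ± 4.58 CPM in cKO and 158 ± 13.0 CPM in control libraries (SD, n = 3 each), lower by 0.84 on the log2 scale (edgeR, SE 0.0982, adjusted p = 0.00112). Emg1, which encodes a methyltransferase of the small subunit's rRNA, fell by 0.79 on the log2 scale (edgeR adjusted p = 0.000973). Both held with any 1 library left out. The number of lower assembly genes was 15, 14 and 21 without cKO library 1, 2 or 3. It was 36, 37 and 23 without control library 1, 2 or 3, and 37 with the length trend removed (background 19.5%). Whether these genes differ from the members was not tested. Of 12 genes of RNA polymerase I transcription, 3 were lower and 0 higher (backgrounds 13.9 and 11.1%), with a median of -0.19. Polr1c, a subunit shared with RNA polymerase III, fell by 0.78 (edgeR adjusted p = 0.00333), and Taf1d, of the promoter factor SL1, by 0.53 (adjusted p = 0.0156). Polr1c held with any 1 library left out and with the length trend removed. Taf1d was lost without cKO library 1 or 2 (edgeR adjusted p up to 0.085) and with the length trend removed (-0.38, adjusted p = 0.0744). The count was 1, 1 and 3 without cKO library 1, 2 or 3 and 5, 3 and 2 without control library 1, 2 or 3.

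Of 55 tested genes of a translation factor list, 21 were lower and 0 higher (backgrounds 13.9 and 11.1%), with a median of -0.24. The list was drawn by symbol and shares genes such as Eef1g with the other TOP messenger RNAs. It also holds Eef1akmt1, Eef1akmt2, Eef1akmt3, Eef1akmt4 and Eef2kmt, which encode methyltransferases of elongation factors. Eif3d, of the initiation factor eIF3, fell by 0.69 (edgeR adjusted p = 0.00192), and Eif1b, a relative of the start codon factor eIF1, by 0.69 (adjusted p = 0.0041), both also with any 1 library left out. The count of lower genes was 12, 11 and 14 without cKO library 1, 2 or 3 and 26, 28 and 13 without control library 1, 2 or 3. Of 16 genes of TOR signalling and related regulators, 1 was lower and 1 higher (backgrounds 13.9 and 11.1%), with a median of 0.08. Eif4ebp1, whose product represses cap-dependent initiation, was lower by 0.44 and Rps6kb1, an S6 kinase gene, higher by 0.27 (edgeR adjusted p = 0.0448 and 0.0492). With the length trend removed Eif4ebp1 stayed lower (-0.38, edgeR adjusted p = 0.0198), while Rps6kb1 was at 0.10 and did not pass (adjusted p = 0.338). Without any 1 cKO library or control 3 there were 0 of either, without control 1 there were 3 lower and 0 higher, and without control 2 there were 2 of each.

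Among ribosomal subunit genes with names outside the rule, Rpsa, of the small subunit, fell by 0.50 (edgeR adjusted p = 0.0299). It was lost without any 1 cKO library or control 3 and passed without control 1 or control 2. Mitochondrial ribosomal proteins, which serve another ribosome, had 22 lower and 0 higher of 79 (backgrounds 13.9 and 11.1%) and a median of -0.27. Mrps22 was at 33.1 ± 3.34 CPM in cKO and 51.4 ± 0.624 CPM in control libraries (SD, n = 3 each), which is -0.63 on the log2 scale, and Mrps5 was at -0.57 (edgeR adjusted p = 0.00339 and 0.00384). Their count was 8, 9 and 13 without cKO library 1, 2 or 3 and 22, 39 and 11 without control library 1, 2 or 3. Genes of the respiratory chain are short like the members, at a median of 731 bases. Of 80 tested, 14 were lower and 0 higher (backgrounds 13.9 and 11.1%), with a median log2 fold change of -0.24. Cyc1, of complex III, fell by 0.60 and Ndufa9, of complex I, by 0.59 (edgeR adjusted p = 0.00375 and 0.00538). The count was 4, 4 and 6 without cKO library 1, 2 or 3 and 17, 35 and 5 without control library 1, 2 or 3. With the length trend removed the medians of these last 2 lists were -0.13 and -0.04.

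Depth was even, and markers of other cell types differed between the groups. Libraries held 15407007 to 18372964 counts. The transcript of Dcaf2, listed as Dtl, was at 45.6 ± 5.15 CPM in cKO and 56.7 ± 18.2 CPM in control libraries (SD, n = 3 each), and the groups were not told apart (edgeR log2 fold change -0.31, adjusted p = 0.281), so this transcript does not by itself check the labels. Besides the germ cell list, 7 of 13 Sertoli cell genes, 3 of 8 Leydig cell genes and 5 of 7 endothelial genes were higher. So were 2 of 9 macrophage genes and 1 of 7 peritubular myoid genes, and 0 of 5 erythroid genes passed. Of 10 undifferentiated spermatogonia genes 3 were lower and 1 higher. The backgrounds were 13.9% lower and 11.1% higher. Summed Sertoli cell markers stood at 7979 to 9191 CPM in cKO libraries, against 5803 to 8045 CPM in control libraries, and summed Leydig cell markers at 1069 to 1111 CPM in cKO libraries, against 474 to 941 CPM in control libraries. Control 1, the library with the highest member levels, also had the highest Sertoli, Leydig and erythroid sums and the lowest germ cell sum of the controls. No listed marker was at 0 in any library, and the part of these cell types in the members' values was not tested.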

How the data were processed

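Messenger RNA libraries of whole testes were compared, 3 cKO and 3 control. StringTie 1.3.1 and RSEM are named, with no role given, by the submitters' processing notes, and the sources used here do not give the aligner, build, annotation or strandedness. The authors deposited estimated counts as whole numbers, and 3 to 21 genes per library have a count of 0 beside an FPKM above 0. FPKM, also deposited by the authors, served for shares, levels per length and paralog ratios.

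Symbols came from a reference gene table for 22219 of 22274 IDs. Genes were filtered with filterByExpr (minimum count 10; the genes left out hold 0.063% of counts), scaled by TMM and tested with edgeR 4.0.16 (quasi-likelihood, R 4.3.3), with p-values adjusted over 14424 genes at a threshold of 0.05. Transcript length is the count over FPKM, scaled by the library total. Log2 deviations used a prior of 0.5 CPM. Coding identity came from global alignments of GENCODE vM21 coding sequences.

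The members and lists were chosen with earlier results of these data known. Named were paralogs and members with roles outside the ribosome, the 5 lower members of largest log2 fold change that passed, the 3 of highest and the 3 of lowest FPKM, copies with counts that were not tested, and the 2 genes of smallest p in each related list. Some named results are not reported here. Rps4l, Polr1f, Polr1g and Polr1h were not analysed here. Alternatives were DESeq2 1.42.0, limma-voom (limma 3.58.1), other scalings, filters and thresholds, the length trend removed, a replicate block and each library left out. Other readings of the symbol rule and sums over copies were added after seeing the data. The fits were also run on simulated counts, whose results are not reported here. Those counts had the same dispersion in every gene and library, whereas the control libraries here spread more than the cKO libraries.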

Additional observations from a re-analysis of the deposited data

How the results depend on the processing

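With 1 library left out, lower members numbered 2 to 63, higher members 0 to 3 and the median of the members was -0.43 to -0.18. With the length trend removed as well, these were 7 to 19, 2 to 7 and -0.11 to -0.06. Lower members were 33 with DESeq2 (background 15.8%), 22 with total-count scaling (background 16.8%) and 2 at an adjusted p under 0.01 (background 6.40%). Among the 33 tested rows with the symbol in mouse case, 5 were lower (15%, beside a background of 13.9%). Higher members were 6 with the length trend removed (background 14.3%). The share of members, cKO minus control, was -1.42 percentage points on summed FPKM.

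Over the fits that leave out a library, with the length trend in place or removed, lower genes were 0 to 5 for a list of subunits named outside the rule, which shares Rpl36al with the members through its deposited symbol, 8 to 39 for mitochondrial ribosomal proteins, 4 to 35 for the respiratory chain, 0 to 6 for other TOP messenger RNAs, 1 to 5 for RNA polymerase I, 14 to 38 for assembly, 11 to 28 for translation factors and 0 to 5 for TOR signalling. Higher genes were 0 to 1 for mitochondrial ribosomal proteins, 0 to 3 for the respiratory chain, 0 to 2 for other TOP messenger RNAs, 0 to 1 for RNA polymerase I, 0 to 1 for assembly, 0 to 3 for translation factors and 0 to 2 for TOR signalling. Over these fits the backgrounds were 6.19 to 22.1% lower and 3.10 to 17.5% higher. With the length trend removed, other TOP messenger RNAs had 4 lower and 2 higher, RNA polymerase I had 5 lower, TOR signalling had 4 lower and 0 higher, and 1, 3 and 1 were higher for mitochondrial ribosomal proteins, the respiratory chain and translation factors. Backgrounds with the length trend removed were 19.5% lower and 14.3% higher. With DESeq2, RLE or total-count scaling, other TOP messenger RNAs and RNA polymerase I had 5 lower each. Backgrounds of lower genes were 15.8% with DESeq2 and 16.8% with total-count scaling. The shares of all tested genes with RLE, limma-voom, upper-quartile scaling or no filter were not counted. TOR signalling had 0 lower with limma-voom and 2 with total-count scaling, and 0 higher with DESeq2, RLE, upper-quartile or total-count scaling, TMM without the members or no filter. With the replicate block, other TOP messenger RNAs had 0 lower and TOR signalling 0 lower and 0 higher. Lower members numbered 8 in that fit. The share of all tested genes called there was not counted, so these numbers have no background. Same-numbered libraries did not deviate together (correlations -0.072, -0.078 and 0.070), and 0 of 6 libraries correlated best with their own number, so the numbers were not taken as pairs.

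Signs turned for 13 named genes. With the length trend removed, Rpl11 was at 0.18, Rpl22 at 0.21, Rpl22l1 at 0.026, Rpl23 at 0.085, Rpl23a at 0.075, Rpl3 at 0.060, Rpl36a at 0.14, Rpl7 at 0.052 and Rps27 at 0.20. Over the fits that leave out a library, with the length trend in place or removed, Rpl11 ran over -0.17 to 0.20, Rpl22 over -0.13 to 0.26, Rpl22l1 over -0.43 to 0.068, Rpl23 over -0.24 to 0.11, Rpl23a over -0.29 to 0.11, Rpl3 over -0.21 to 0.091, Rpl36a over -0.24 to 0.19, Rpl7 over -0.26 to 0.088, Rps27 over -0.23 to 0.24, Rpl39 over -0.047 to 0.51, Rps4x over -0.035 to 0.41, Rps19 over -0.46 to 0.000162 and the copy Gm11361 over -0.38 to 5.38. The causes were not tested.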
